A study of Mus musculus with 4 samples.

Results

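Transcript levels of 9 genes tied to cytokine mRNA decay were followed in RNA sequencing of group 2 innate lymphoid cells (ILC2s) from the mouse colon. They encode the AU-rich element binders Zfp36, Zfp36l1 and Zfp36l2, the endonuclease Regnase-1 (Zc3h12a), the Roquin proteins (Rc3h1 and Rc3h2), the deadenylation cofactors Btg1 and Btg2, and the poly(C)-binding protein Pcbp1. They were taken by symbol from the deposited gene table, and 9 of 9 were found among its 27179 gene identifiers. All 9 passed the filter on low counts that left 11841 genes for testing. The cells were sorted from C57BL/6J mice on a control diet (2 libraries) or a high-fiber diet (2 libraries), each library from its own mouse. The labels used here do not state the gates of the sort, the kind of fiber, the time on the diet, or the age and sex of the mice. No allele, transgene or further treatment is named for either group. The counts are of transcripts, and neither mRNA decay nor protein levels were measured.

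ILC2s are tissue lymphocytes without rearranged antigen receptors that release type 2 cytokines when epithelial alarmins or neuropeptides reach them. Cytokine transcripts are short-lived, and the proteins studied here are among those that set their lifetime. ZFP36 proteins bind AU-rich elements in the 3′ UTR and bring in the CCR4-NOT complex, which removes the poly(A) tail. Roquin and Regnase-1 recognise stem-loops in overlapping sets of immune transcripts, and BTG proteins tie CCR4-NOT to poly(A)-binding protein and are known for holding lymphocytes in quiescence. Zfp36 and Btg2 are also immediate early genes, which stimulation and cell isolation both induce.

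The element that ZFP36 proteins read is shown first, because transcripts of the ZFP36 genes themselves carry it, as cytokine transcripts do. The short form searched was TATTTAT and the longer form TTATTTATT, on the transcript strand only, and each longer form contains the short one. In GENCODE M21 transcripts (GRCm38), 1 RefSeq-matched coding transcript per gene, TATTTAT stood in the 3′ UTR of 25.5% of 19257 genes, and TTATTTATT in 6.75%. TATTTAT was present in 6 of the 9 genes: 3 matches each in Zfp36, Zfp36l1, Zfp36l2 and Rc3h2, 2 in Rc3h1 and 1 in Btg2. The longer form had 1 match each in Zfp36, Zfp36l1, Zfp36l2, Rc3h1 and Rc3h2, and 0 in Btg2. Zc3h12a, Btg1 and Pcbp1 held no match in that window. Among 3′ UTRs within 20% of the length of that of Zfp36 (774 bases), 19.7% held TATTTAT, against 37.7% for the length of Zfp36l1, 41.3% for that of Btg2 and 76.2% for that of Rc3h1. The sites below were picked to set the genes beside cytokine transcripts, with 1 TATTTAT match of each stretch in capitals. The Csf2 stretch holds further, overlapping matches that are partly or wholly in lower case.
Zfp36 (chr7:28376951-28376979, minus strand): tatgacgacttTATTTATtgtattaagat
Zfp36l1 (chr12:80108167-80108195, minus strand): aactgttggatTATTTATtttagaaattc
Zfp36l2 (chr17:84184914-84184942, minus strand): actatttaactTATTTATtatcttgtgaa
Btg2 (chr1:134077249-134077277, minus strand): aaatgaagagcTATTTATacatgtttttt
Il5 (chr11:53725044-53725072, plus strand): cagtaagttaaTATTTATtacaacgtata
Il13 (chr11:53631741-53631769, minus strand): cttcttgatctTATTTATtatggttgtgt
Csf2 (chr11:54247325-54247353, minus strand): aaatatttattTATTTATttatttatttt
A match of letters is a description and was not tested for binding in these cells.

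Promoters are printed for Zfp36 and Btg2, the genes with the largest diet differences of the 9. Each shows the 250 bases before the RefSeq start site (GRCm38.p6), with matched motifs in capitals. Motifs searched on both strands were EGR (GCGNGGGCG), CRE (TGACGTCA), AP-1 (TGANTCA), the CArG box and the kappa B consensus.
Zfp36 (chr7:28379229-28379478, minus strand): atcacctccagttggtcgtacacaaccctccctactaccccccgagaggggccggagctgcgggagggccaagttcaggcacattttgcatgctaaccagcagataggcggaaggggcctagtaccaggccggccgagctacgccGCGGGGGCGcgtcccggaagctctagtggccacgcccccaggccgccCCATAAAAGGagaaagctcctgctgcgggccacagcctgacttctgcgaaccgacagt
Btg2 (chr1:134079156-134079405, minus strand): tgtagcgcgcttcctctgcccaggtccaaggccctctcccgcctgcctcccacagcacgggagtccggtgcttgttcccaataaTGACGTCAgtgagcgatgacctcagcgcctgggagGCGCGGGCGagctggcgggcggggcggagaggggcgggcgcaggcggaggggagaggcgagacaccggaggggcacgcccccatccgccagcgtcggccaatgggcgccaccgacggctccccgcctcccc
Zfp36 held an EGR match from 105 bases before the start and a CArG box from 58 bases before it. Btg2 held a CRE from 166 bases and an EGR match from 131 bases before the start. Matched stretches did not overlap each other, and none was tested for binding or for a part in the diet differences. Of 32851 promoter windows of this length, 4.70% held the EGR letters, 1.55% the CRE, 6.75% AP-1, 1.47% a CArG box and 3.90% the kappa B consensus. A promoter window was found for 8 of the 9 genes, and the other 6 of these held an AP-1 match in Rc3h1 and Zfp36l1 and none of the 5 motifs in Zc3h12a, Rc3h2, Btg1 and Pcbp1.

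Library totals were 20253987 to 30406730 counts, and library 1 of each diet was the deeper. Values below are CPM (read counts of a gene relative to the scaled total of its library, in the usual counts-per-million unit), given as mean ± SD over 2 mice where groups are described. High-fiber library 2 stood apart from the other 3 on the first principal component, which held 44.25% of the variance (137.5 against -79.45 to -6.71). All 12 ILC2 markers sought had counts in every library and summed to 13109 to 17034 CPM. Of these, Gata3, Il1rl1, Il7r, Rora, Klrg1 and Il17rb were at 443.6 CPM or more, and the lowest were Thy1 (29.7 to 38.4 CPM) and Il13 (9.62 to 18.2 CPM). In a bulk library, fewer cells of a type and less RNA per cell cannot be told apart.

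The 9 transcripts lay far apart in level. Compared per kilobase of merged annotated exon, Btg1 was the most abundant at a mean of 722 CPM per kb over the 4 libraries, a level above 99.5% of tested genes. Zfp36 followed at 409 CPM per kb, then Zfp36l1 at 265 and Btg2 at 254. Pcbp1 (36.9), Zc3h12a (34.5) and Zfp36l2 (26.3) formed a lower tier, and Rc3h1 (4.15) and Rc3h2 (1.42) were the least abundant. From Btg1 down to Btg2, and from Pcbp1 down to Zfp36l2, the ranges over libraries of neighbours in this order overlapped. Between Btg2 and Pcbp1, between Zfp36l2 and Rc3h1, and between Rc3h1 and Rc3h2 they did not. Using the length of 1 RefSeq-matched transcript per gene, an alternative added after seeing the data, gave the same order, with Rc3h2 at 3.11 CPM per kb.

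**Figure D1:**
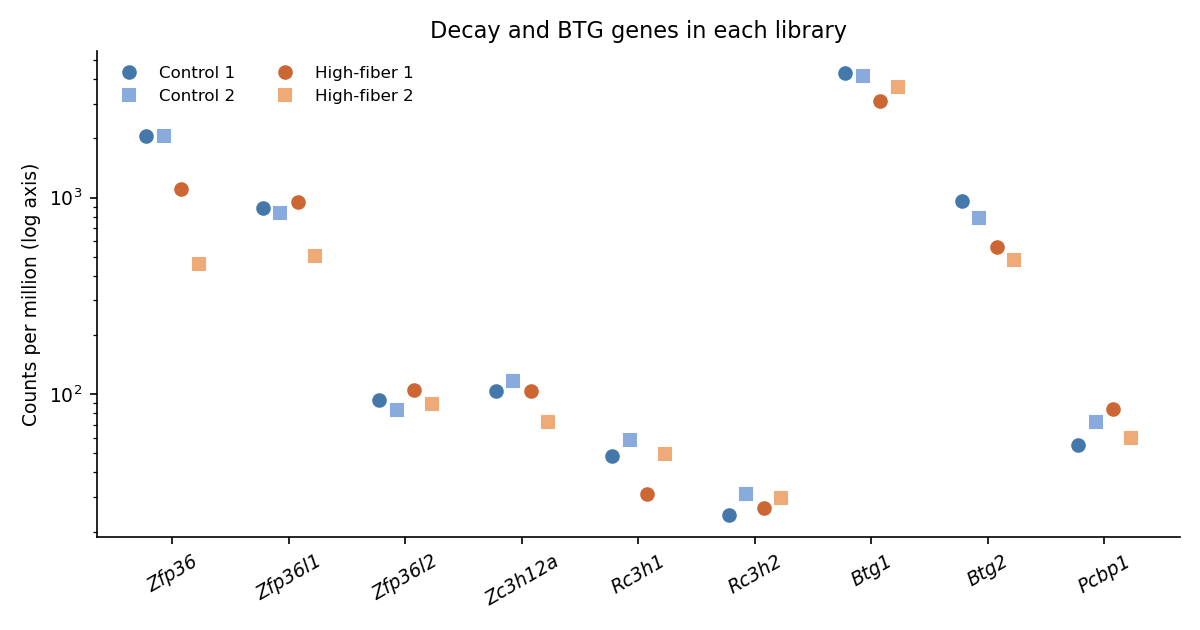
CPM of the 9 genes in each of the 4 libraries, on a log axis; circles are library 1 and squares library 2 of each diet. The Zfp36 points separate by diet, from 2057 and 2045.5 CPM on the control diet to 1108 and 461 CPM on the high-fiber diet, while Btg1 is at 3102 CPM or more in every library.

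The question put to the diets was whether these 9 transcripts differed in level. Fitted levels were lower on the high-fiber diet for 6 of the 9, beside 51.2% of all genes tested, and higher for 3. Zfp36 and Btg2 had the largest differences. By edgeR's quasi-likelihood test, adjusted over all 11841 genes, 0 of the 9 passed at 0.05 in either direction, where 0% of all genes passed as lower and 0.0338% as higher. At an unadjusted p under 0.05, 2 of the 9 were lower (Zfp36 and Btg2; 4.10% of all genes) and 0 were higher (4.70%; 8.80% in either direction). DESeq2 called 1 of the 9, Zfp36, lower (0.635% of all genes) and 0 higher (1.28%; 1.91% either way), and limma-voom called 0. For 3 genes (Zfp36, Btg1 and Btg2) both high-fiber libraries lay below both control libraries, beside 19.6% of all genes. For 0 of the 9 both lay above, beside 18.5% (38.2% in either direction). The median log2 fold change of the 9 was -0.32, beside -0.016 over all genes tested. With 1 library left out it ran from -0.30 (no control library 1) to -0.089 (no high-fiber library 2), and was -0.18 when high-fiber library 1 was dropped. With 2 against 2 libraries an exact two-sided permutation test of a single gene cannot go below p = 0.333.

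Zfp36 encodes tristetraprolin, the founding member of its family, which restrains TNF and other cytokine transcripts (NCBI gene 22695, chromosome 7, 28376784 to 28379228). Its level was 2057 CPM in control mouse 1, 2045.5 CPM in control mouse 2, 1108 CPM in high-fiber mouse 1 and 461 CPM in high-fiber mouse 2. The control libraries differed little from each other, whereas the high-fiber libraries differed more, and both lay below the controls. Means were 2051 ± 7.85 CPM in control and 784 ± 457 CPM in high-fiber mice, a 2.61-fold lower mean. The log2 fold change was -1.38 ± 0.40 (SE), with a 95% interval of -2.34 to -0.42, an unadjusted p of 0.0117 and an edgeR adjusted p of 0.447. DESeq2 gave an adjusted p of 0.0232. Without high-fiber library 2 the difference was -0.89, and without high-fiber library 1 it was -2.13, so the 2 libraries moved its size by more than 1.5 times. The edgeR adjusted p in those fits was 0.587 and 0.201. The DESeq2 call was lost without control library 1 (adjusted p = 0.204) or control library 2 (0.224), and DESeq2 called Zfp36 without high-fiber library 1 (2.47e-22) and without high-fiber library 2 (0.00255).

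Zfp36l1, a paralog with the same zinc fingers and roles in lymphocyte quiescence (NCBI gene 12192, chromosome 12, 80107760 to 80113013), did not separate by diet. It stood at 879.8 and 831 CPM on the control diet and at 954 and 504 CPM on the high-fiber diet. The highest and the lowest value both came from the high-fiber group. Its log2 fold change of -0.23 ± 0.32 (95% interval -0.99 to 0.53, edgeR adjusted p = 0.905) became 0.15 without high-fiber library 2 and -0.74 without high-fiber library 1, where DESeq2 called it lower (adjusted p = 0.0175). Zfp36l2, the third paralog (NCBI gene 12193, chromosome 17, 84183924 to 84187947), stood at 93.6 and 83.4 CPM in control and 105 and 89.5 CPM in high-fiber mice. Its groups overlapped, with a log2 fold change of 0.14 ± 0.25 (95% interval -0.45 to 0.73, edgeR adjusted p = 0.927). With 1 library left out it ran from 0.04 (no high-fiber library 1) and 0.058 (no control library 2) to 0.23 (no control library 1) and 0.24 (no high-fiber library 2).

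Within each library the 3 ZFP36 paralogs can be set against each other without scaling between libraries. Zfp36 counts were 2.34 and 2.46 times those of Zfp36l1 in the control mice, and 1.16 and 0.916 times in the high-fiber mice (1 and 2 in each pair). Per kilobase, Zfp36 made up 64.9% and 66.1% of the 3 transcripts on the control diet and 47.8% and 40.7% on the high-fiber diet. Both high-fiber libraries thus held a smaller Zfp36 share than both control libraries. Zfp36l1 went from 32.2% and 31.2% to 47.8% and 51.6%, and Zfp36l2 from 2.90% and 2.65% to 4.47% and 7.76%. The summed level of the 3 was 913 and 891 CPM per kb on the control and 668 and 327 CPM per kb on the high-fiber diet. A ratio shows unequal change and not which gene changed.

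**Figure D2:**
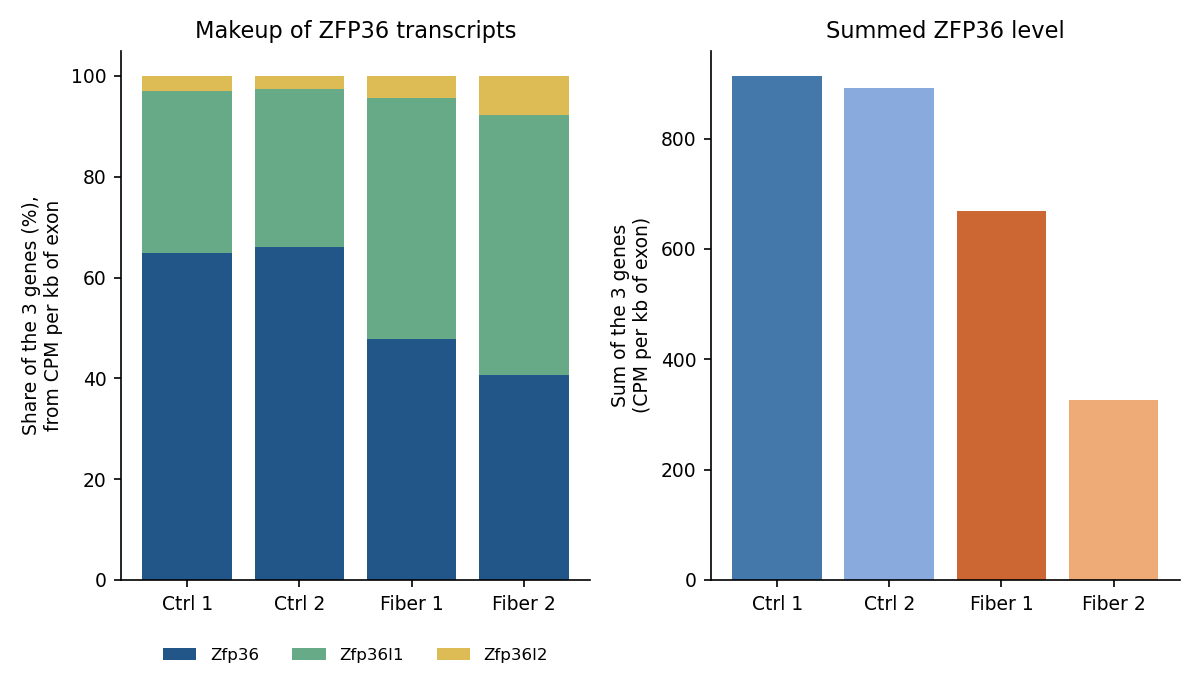
Left, share of Zfp36, Zfp36l1 and Zfp36l2 among their summed CPM per kilobase of exon in each library; right, that sum, with bars from 0 and no error bars since each bar is 1 mouse. Zfp36 takes 64.9% and 66.1% on the control diet (Ctrl) and 47.8% and 40.7% on the high-fiber diet (Fiber), and the sum is lowest, at 327, in high-fiber library 2.

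Regnase-1, encoded by Zc3h12a (NCBI gene 230738, chromosome 4, 125118414 to 125127881), cleaves stem-loops in cytokine transcripts. It stood at 104 and 117 CPM on the control diet and at 104 and 72.0 CPM on the high-fiber diet. Only high-fiber library 2 lay clearly lower than the other 3 libraries. The log2 fold change was -0.32 ± 0.28 (95% interval -0.98 to 0.34, edgeR adjusted p = 0.818), and it was -0.089 without high-fiber library 2 and -0.59 without high-fiber library 1.

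Roquin-1 (Rc3h1, NCBI gene 381305, chromosome 1, 160906411 to 160974976) and Roquin-2 (Rc3h2, NCBI gene 319817, chromosome 2, 37368861 to 37424370) bind stem-loops in transcripts such as Tnf and Icos. Rc3h1 stood at 48.5 and 58.3 CPM on the control diet and at 31.2 and 49.7 CPM on the high-fiber diet. The lowest of these values belonged to high-fiber library 1, and the other high-fiber library lay between the controls. Its log2 fold change was -0.41 ± 0.35 (95% interval -1.24 to 0.41, edgeR adjusted p = 0.81), but -0.07 without high-fiber library 1 and -0.77 without high-fiber library 2. Rc3h2 stood at 24.3 and 31.2 CPM in control and 26.5 and 29.5 CPM in high-fiber mice, both high-fiber values lying between the controls. Its log2 fold change was 0.021 ± 0.36, and the 95% interval of -0.85 to 0.89 does not exclude a change in either direction. Its sign turned without scaling factors (-0.022).

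Btg2 is the BTG gene that stimulation and p53 induce (NCBI gene 12227, chromosome 1, 134074865 to 134079155). It stood at 959 and 785 CPM on the control diet and at 561 and 481 CPM on the high-fiber diet. Both high-fiber libraries lay below both control libraries, and the control libraries lay further apart from each other. Means were 872 ± 124 and 521 ± 56.9 CPM, a 1.67-fold lower mean on the high-fiber diet. The log2 fold change was -0.74 ± 0.22 (95% interval -1.27 to -0.22), with an unadjusted p of 0.0129, an edgeR adjusted p of 0.447 and a DESeq2 adjusted p of 0.0826. With 1 library left out it ran from -0.88 to -0.59 by edgeR. Without control library 1 the unadjusted p was 0.122, which left Zfp36 as the only gene of the 9 under 0.05. Without high-fiber library 1 DESeq2 called Btg2 lower (adjusted p = 0.0105).

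Btg1, the abundant BTG gene of resting lymphocytes (NCBI gene 12226, chromosome 10, 96617001 to 96622813), stood at 4308 and 4165 CPM on the control diet and at 3102 and 3664 CPM on the high-fiber diet. Its groups did not overlap, yet the difference was small beside its error, at -0.32 ± 0.22 (95% interval -0.86 to 0.21, edgeR adjusted p = 0.761). Leaving out 1 library moved it between -0.45 and -0.18. Btg1 counts were 4.49 and 5.31 times those of Btg2 on the control diet and 5.53 and 7.62 times on the high-fiber diet. The Btg1-like genes Btg1b and Btg1c had 0 counts in all 4 libraries; the handling of reads shared with such copies is not given.

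Pcbp1 encodes a poly(C)-binding protein that acts on stability and translation of many transcripts (NCBI gene 23983, chromosome 6, 86524480 to 86526189). It stood at 54.9 and 71.9 CPM on the control diet and at 84.0 and 59.6 CPM on the high-fiber diet. The groups overlapped, with a log2 fold change of 0.20 ± 0.31 (95% interval -0.54 to 0.93, edgeR adjusted p = 0.914). The value was -0.053 without high-fiber library 1 and 0.41 without high-fiber library 2.

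**Figure D3:**
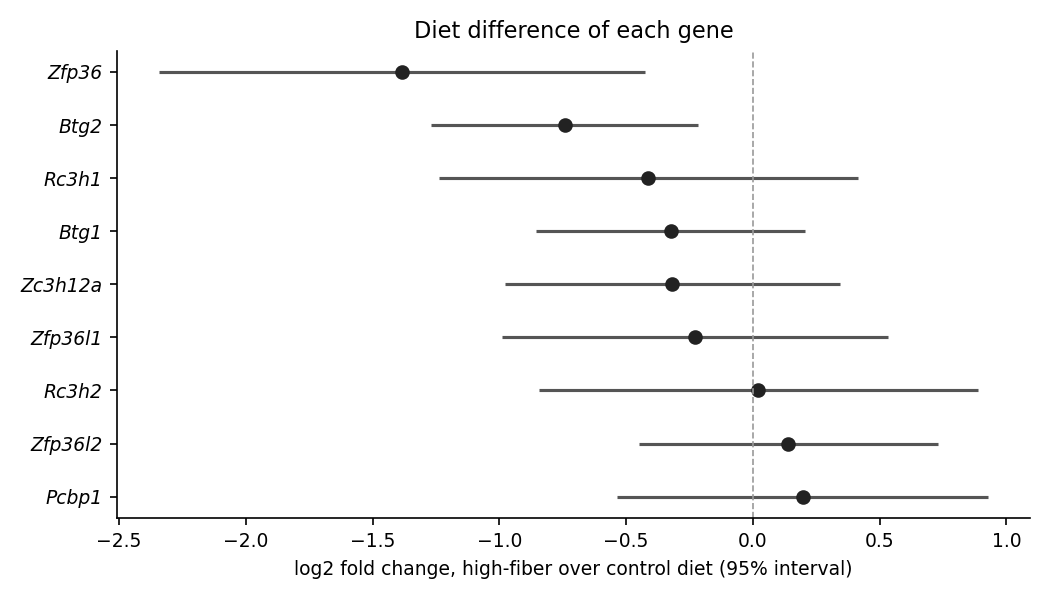
Log2 fold change of each of the 9 genes, high-fiber over control diet, from edgeR's quasi-likelihood fit (dots) with its unadjusted 95% interval (lines), 2 libraries per diet. The intervals of Zfp36 (-2.34 to -0.42) and Btg2 (-1.27 to -0.22) lie below 0, and those of the other 7 genes include it.

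**Figure D4:**
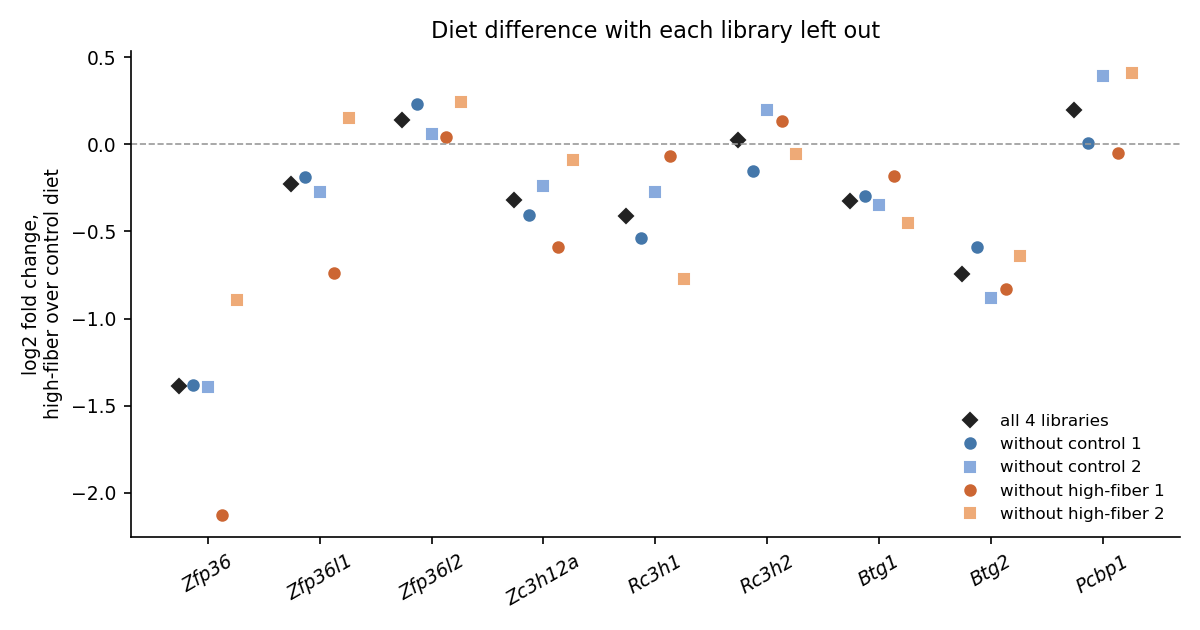
Log2 fold change of each gene in edgeR's fit of all 4 libraries (diamonds) and with each library left out in turn (circles and squares). Zfp36 ranges from -2.13 to -0.89 and Btg2 from -0.88 to -0.59, whereas Zfp36l1, Rc3h2 and Pcbp1 take both signs.

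The machinery that these proteins recruit was counted in the same way. Of 12 tested genes of the CCR4-NOT deadenylase complex, 0 passed edgeR's test after adjustment and DESeq2 called 0. At an unadjusted p under 0.05, 2 were lower (16.7%, beside 4.10% of all genes) and 0 higher (4.70% of all genes). The list median was 0.11 and ran from -0.085 to 0.11 with 1 library left out. The 2 were Cnot6 and Cnot6l, which encode alternative catalytic deadenylases of the complex. Cnot6 stood at 74.7 and 78.8 CPM on the control diet and at 42.7 and 41.2 CPM on the high-fiber diet (-0.87 ± 0.27, edgeR adjusted p = 0.45). Cnot6l stood at 226 and 212 CPM on the control diet and at 94.0 and 155 CPM on the high-fiber diet (-0.83 ± 0.29, edgeR adjusted p = 0.484). Both were among 3 of the 12 genes whose high-fiber libraries lay below both control libraries, beside 19.6% of all genes. The count of 2 became 0 without either control library and 1 without high-fiber library 1. Cnot7 and Cnot8, which encode the deadenylases that BTG proteins bind, were chosen for that role after their values were seen. Cnot7 averaged 155 ± 16.4 CPM in control and 157 ± 43.0 CPM in high-fiber mice, and Cnot8 averaged 97.5 ± 0.22 and 92.9 ± 26.1 CPM.

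Other parts of the decay pathway gave 0 calls by edgeR and by DESeq2. For poly(A) tail binding and other deadenylases (8 tested), 0 genes had an unadjusted p below 0.05 and the median was 0.23. That median ran from -0.0091 (no high-fiber library 2) to 0.19 with 1 library left out. The most abundant per kilobase were Paip2, an inhibitor of poly(A)-binding protein, at 680 ± 0.89 and 949 ± 289 CPM, and Pabpc1, the main poly(A)-binding protein, at 205 ± 14.4 and 214 ± 15.6 CPM. Decapping and 5′ decay (17 tested, median 0.14) and the RNA exosome with its helpers (15 tested, median -0.088) also had 0 genes below that p. With 1 library left out, the decapping median ran from -0.16 to 0.10 and the exosome median from -0.084 to 0.045. Dropping high-fiber library 1 put 1 gene of each of these lists below that p, higher for the poly(A) list and lower for the others. The most abundant per kilobase of the decapping and exosome lists were Lsm4, of the LSM ring that binds deadenylated ends, at 237 ± 11.4 and 282 ± 19.2 CPM, and Exosc3, an exosome cap subunit, at 90.9 ± 7.33 and 100.04 ± 32.7 CPM. Among 15 other cytokine mRNA stability factors (median 0.053) 1 was lower below that p, except without control library 1 (0). Without high-fiber library 1 there was also 1 higher. The lower gene was Nfkbiz, at 2073 ± 339 and 1098 ± 352 CPM (-0.92 ± 0.29, edgeR adjusted p = 0.456). It encodes the nuclear IkB protein IkB-zeta and is counted again among the target and immediate early transcripts. The count therefore does not show a lower mRNA-binding factor. No other gene of the 15 lay below that p with all 4 libraries, where 4.10% of all genes were lower.

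Of the 9 tested paralogs of these genes, 2 had an unadjusted p below 0.05, both with higher levels, beside 4.70% of all genes. After adjustment 0 passed by edgeR or by DESeq2. Zc3h12c, a Regnase paralog, stood at 43.1 and 32.3 CPM on the control diet and at 70.8 and 64.6 CPM on the high-fiber diet (0.83 ± 0.30, edgeR adjusted p = 0.493). Both high-fiber libraries lay above both controls, the opposite order from Zfp36 and Btg2. Pcbp4 was low, at 0.894 and 0 CPM in control and 12.4 and 2.16 CPM in high-fiber mice (edgeR adjusted p = 0.456). The count of 2 became 0 without either control library or without high-fiber library 1, where 1 paralog was lower. Zfp36l3 and Btg4 had 0 counts in every library, which allows up to 3 counts each.

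Transcripts known as targets of these factors did not move in a common direction. Of 25 tested, 16 had negative and 9 positive log2 fold changes, where 51.2% of all genes were negative. The median of -0.31 became 0.033 without control library 2. After adjustment over all genes, edgeR called 1 higher (Il17a) and 0 lower, beside 0.0338% and 0% of all genes. DESeq2 called 2 higher (Il17a and Tnfrsf4) and 2 lower (Fos and Nfkbid), beside 1.28% and 0.635%. With unadjusted p below 0.05, 5 were higher (4.70% of all genes) and 7 lower (4.10%). The higher count became 2 without control library 2 and 3 without high-fiber library 1, and the lower count stayed between 5 and 6 with any 1 library left out. Fos, Myc, Ier3, Nfkbia, Nfkbid and Nfkbiz also belong to the immediate early list below, so those counts are not independent. Nfkbid, a Roquin and Regnase target that encodes a nuclear IkB protein, was at 2443 and 1957 CPM in control and 1025 and 676 CPM in high-fiber mice (-1.37 ± 0.28, edgeR adjusted p = 0.444). Tnfrsf4, which encodes the costimulatory receptor OX40, was at 4.67 and 6.48 CPM in control and 25.8 and 28.8 CPM in high-fiber mice (2.32 ± 0.50, edgeR adjusted p = 0.447). Il17a rose from 1.37 ± 0.29 to 85.8 ± 13.2 CPM (6.00 ± 0.48, edgeR adjusted p = 0.0306). That call was lost without control library 1, control library 2 or high-fiber library 2, fits in which edgeR called 0 genes higher.

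The cytokine transcripts whose sites are printed above were chosen for their place in ILC2 biology after their values were seen. Il5, which encodes the eosinophil growth factor, was at 3043 and 2559 CPM on the control diet and at 5889 and 3799 CPM on the high-fiber diet (edgeR adjusted p = 0.496). Its groups did not overlap and its order was opposite to that of Zfp36. Among all 25 target transcripts, 6 had non-overlapping groups in that order (18.5% of all genes) and 11 in the order of Zfp36 (19.6%). The 11 included the cytokines Il2, Il3, Il4 and Ifng. Il2 was at 141 and 118 CPM in control and 56.6 and 71.0 CPM in high-fiber mice. Ifng was at 19.2 and 25.7 CPM in control and 7.69 and 7.51 CPM in high-fiber mice. Csf2, with 9 TATTTAT matches in a 3′ UTR of 317 bases, had means of 2103 ± 143 and 2052 ± 299 CPM. Il13, with 1 match, was low in every library, at 9.62 to 18.2 CPM. Tnf, the best known ZFP36 target, with 8 matches, was at 32.4 and 89.0 CPM in control and 28.1 and 36.3 CPM in high-fiber mice. Of the 25 target transcripts 19 held TATTTAT, and whether a site bears on any difference was not tested.

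**Figure D5:**
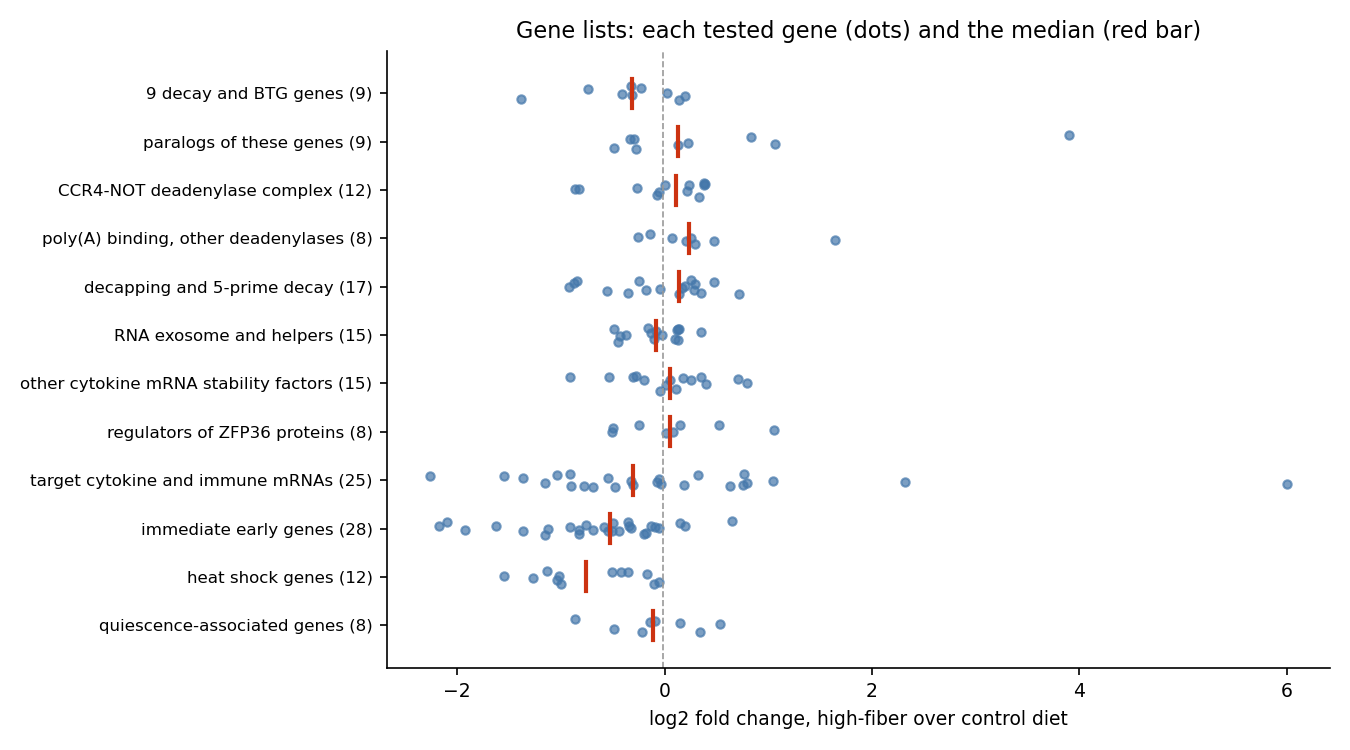
Log2 fold change, high-fiber over control diet, of each tested gene (dots) and the median (red bars) for the 9 genes and 11 lists, with the number tested in parentheses; the dashed line is the median of all 11841 genes, -0.016. The 9 genes have a median of -0.32, the target transcripts -0.31, the immediate early genes -0.53 and the heat shock genes -0.76. The medians of the decay machinery lie between -0.088 and 0.23 and each took both signs when 1 library was left out. Without control library 2 the medians of the target transcripts and the heat shock genes were positive (0.033 and 0.245).

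Further gene lists and cell type markers were set beside Zfp36 and Btg2 across the libraries, and not all of them followed these genes. Of 28 other immediate early genes, 25 had negative log2 fold changes, beside 51.2% of all genes. At an unadjusted p under 0.05, 12 were lower (42.9%, beside 4.10% of all genes). The 4 of smallest p were the transcription factors Egr1, Nr4a2, Egr2 and Atf3. After adjustment 0 passed by edgeR, and DESeq2 called 8 lower (0.635% of all genes). The 28 genes summed to 57716 to 66873 CPM on the control and 34756 to 43255 CPM on the high-fiber diet. The list median of -0.53 ran from -0.88 (no high-fiber library 1) to -0.46 (no high-fiber library 2) with 1 library left out. The count of 12 was smaller without either control library and larger without high-fiber library 1, as was the count over all genes. Markers of B and plasma cells went the other way: 5 of 5 tested were positive. The 7 genes summed to 39.1 to 156 CPM on the control and 342 to 1226 CPM on the high-fiber diet. The high-fiber sums came mostly from Igkc, Igha and Jchain, with Ms4a1 at or below 0.0662 CPM in every library. T cell markers summed to 922 to 1063 CPM and 909 to 1004 CPM, mostly from Trbc1, Trbc2 and Cd3g, with Cd8a at 0. Of 6 tested, 5 were negative and Cd3g was positive. Macrophage, monocyte and dendritic cell markers summed to 225 to 342 CPM and 380 to 403 CPM, mostly from Apoe, Lyz2 and Zbtb46. Of 8 tested, 6 were positive, Zbtb46 was negative, and Itgax was at 0. Epithelial Krt8, Krt20, Vil1 and Muc2 were at 0 in every library, and the epithelial list summed to 25.1 to 36.9 CPM, nearly all from Epcam. Stromal and endothelial markers summed to 42.1 to 64.5 CPM, nearly all from Pecam1. ILC3 and NK markers summed to 27.5 CPM or less, and mast cell, basophil and granulocyte markers to 2.45 CPM or less. Egr1, which encodes a zinc finger factor, was at 599 and 787.5 CPM in control and 189 and 134 CPM in high-fiber mice, groups that did not overlap. Heat shock genes summed to 6026 CPM in control mouse 1 and 13902 CPM in control mouse 2. They summed to 6816 CPM in high-fiber mouse 1 and 7208 CPM in high-fiber mouse 2, so control library 2 stood apart. The part of these measures in the Zfp36 and Btg2 values was not tested.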

How the data were processed

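RNA of sorted colonic ILC2s was measured in 4 libraries, 2 per diet, each from 1 mouse per the series' design text, made with a SMARTer ultra-low-input kit per the labels' protocols. The authors deposited whole-number read counts per NCBI gene, not normalized. CASAVA 1.8.2, STAR 2.3.0 and mm10 are named in the submitters' processing notes; for the counting program and its strand setting the sources used here give nothing. A RefSeq symbol (GRCm38.p6) was found for 25275 of 27179 identifiers, and 0 value columns lacked a sample.

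The test was edgeR's (version 4.0.16, R 4.3.3): filterByExpr (11841 of 15425 genes with any count), TMM, an intercept and diet, estimateDisp, glmQLFit (legacy=FALSE, robust off), glmQLFTest, and Benjamini-Hochberg adjustment over all genes at 0.05. Positive log2 fold changes mean higher on the high-fiber diet. Standard errors came from the fold change and F; 95% intervals are unadjusted. The fit had 2 residual degrees of freedom and a common coefficient of biological variation of 0.607. Levels per kilobase used merged GENCODE M21 exons. The test was checked on simulated data. The floor of 3 counts covers counting error only, as PCR copies are not separate molecules.

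The 9 genes, the lists and the tests were chosen with earlier results of these data known. Named list genes were up to 4 of smallest p under 0.05, otherwise the 2 most abundant per kilobase, of which the text names 1 or both. Alternatives were RLE, upper-quartile or no scaling, no filter, a filter of 5 CPM in 2 libraries, a robust fit, legacy=TRUE, limma-voom (limma 3.58.1), DESeq2 1.42.0, a replicate block, and each library left out with edgeR and DESeq2. Counts of list genes without each library, and levels by transcript length, were added after seeing the data. The level of 1 marker gene is not reported here.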

Additional observations from a re-analysis of the deposited data

How the results depend on the processing

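Over 18 alternatives, 6 of the 9 genes (Zfp36, Zfp36l2, Zc3h12a, Rc3h1, Btg1 and Btg2) kept the sign of their log2 fold change. Zfp36 ran from -1.52 to -1.37 with all 4 libraries and from -2.13 to -0.89 with 1 left out by edgeR. Of 162 gene values 9 turned sign. Rc3h2 was -0.022 without scaling factors and ran from -0.156 to 0.199 with 1 library left out by edgeR, and was -0.136 and -0.063 by DESeq2 without control library 1 and high-fiber library 2 (-0.058 by edgeR for the latter). Zfp36l1 was 0.15 by edgeR and 0.16 by DESeq2 without high-fiber library 2, and Pcbp1 was -0.053 and -0.055 without high-fiber library 1, against up to 0.41 in the other fits that left a library out. The cause was not tested. Of the 9 genes, 0 were called by edgeR or limma-voom under any alternative, and DESeq2 called 1 lower with all libraries and 0 to 3 lower with 1 left out. Over all genes, 4 were called higher and 0 lower by edgeR. The higher count was 0 with no filter, limma-voom, the legacy fit or a replicate block, 8 with the filter of 5 CPM and 159 with DESeq2. The lower count was 1 with that filter and 79 with DESeq2. With 1 library left out, the higher count ran from 0 to 1 by edgeR and 98 to 217 by DESeq2 (136, 98, 217 and 106 without control 1, control 2, high-fiber 1 and high-fiber 2), and the lower count was 0 by edgeR and 11 to 538 by DESeq2 (15, 11, 538 and 85 in the same order). A fit with 1 library on a diet assumes that it varies like the other group. The replicate numbers are shared between diets only as numbers: deviations of same-numbered libraries from their group means correlated at 0.101 over 8896 genes, the same for both numbers by construction. With the replicate block Zfp36 was -1.52 (edgeR adjusted p = 0.542) and Btg2 -0.74 (0.542).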

Other observations

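Across the 4 libraries, the genes whose centred log2 CPM lay nearest to each of the 9 genes were sought among 3676 genes with a mean of at least 50 CPM. Nearest to Zfp36 were Tagap, Lax1 and Nr4a1. Tagap, a gene of activated lymphocytes, stood at 96.5 and 86.8 CPM in control and 48.8 and 23.9 CPM in high-fiber mice. Lax1, an adaptor that dampens antigen receptor signalling, stood at 72.6 and 69.8 CPM in control and 39.1 and 19.2 CPM in high-fiber mice. Nearest to Btg2 were Tbpl1, Haus2 and the immediate early gene Ier2, which was at 2420 and 2160 CPM in control and 1470 and 1250 CPM in high-fiber mice. Nearest to Btg1 were Txk, a kinase of the Tec family, Ripk1 and Srsf1. Over 4 libraries such likeness is a description.

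A list of 8 regulators of ZFP36 proteins included Dusp1, which is also on the immediate early list. Of the 8, 1 was higher at an unadjusted p under 0.05 (4.70% of all genes), and 0 passed after adjustment by edgeR or by DESeq2. This was Ppp2ca, the catalytic subunit of the phosphatase PP2A, which acts on phosphorylated tristetraprolin. It had means of 452 ± 184 CPM in control and 940 ± 116 CPM in high-fiber mice (1.05 ± 0.31, edgeR adjusted p = 0.447, DESeq2 adjusted p = 0.0522), and the count of 1 became 0 when either library 2 was left out. Lower at that p were 2 regulators without high-fiber library 1 and 1 without high-fiber library 2. Another list held 8 genes associated with lymphocyte quiescence, with Tob1 also among the paralogs and Klf2 also among the immediate early genes. Of these 8, 0 lay at an unadjusted p under 0.05, 5 were negative and the median was -0.12. Without high-fiber library 1, 3 were lower at that p, and without control library 1 the median was 0.124 with 2 negative. The most abundant per kilobase were Slfn2, at 108 ± 17.8 and 101 ± 63.4 CPM, and the BTG relative Tob1, at 121 ± 0.48 and 85.4 ± 18.9 CPM. Heat shock genes had 12 of 12 negative log2 fold changes, beside 51.2% of all genes. Of these, 2 (Dnajb4 and Hsph1) had an unadjusted p below 0.05, beside 4.10% of all genes. Dnajb4 was the 1 gene that DESeq2 called (adjusted p = 0.0348), where it called 0.635% of all genes lower. The count of 2 became 6 without control library 1 and 1 without control library 2 or when high-fiber library 2 was dropped. Without control library 2, 4 of the 12 were negative and the list's median went from -0.76 to 0.245.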
